A study of Mus musculus with 7 samples.

Results

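The genes described here are 36 genes of the endoplasmic reticulum (ER) chaperone system and the unfolded protein response, out of 23930 genes in the deposited table, and all 36 had a row there. They were chosen by name, with earlier results of these data known. They fall into 17 ER chaperones and folding enzymes, 9 genes of ER-associated degradation, 3 genes of the IRE1 and ATF6 arms and 7 genes of the PERK and ATF4 arm. RNA came from sorted Pax7-GFP cells of mouse hind leg muscle, in 3 libraries from normocapnia, NC1 to NC3, and 4 from hypercapnia, HC1 to HC4. All mice carried the inducible Pax7-GFP reporter on a C57BL/6 background, in which Cre recombinase made from the Pax7 locus switches on GFP after tamoxifen. Cells that have since lost Pax7, and their progeny, therefore stay labeled. All mice received tamoxifen from 12 weeks of age and were collected at 16 weeks, after 4 weeks in room air (normocapnia) or, per the methods, in 10% CO2 (hypercapnia). The methods also state that cardiotoxin was injected into leg muscles of both groups 3 days before collection, so the cells came from muscle under repair. A heading of the table names a time in hours that neither source ties to these libraries. The labels do not mention the injury, nor which libraries came from which sex.

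The unfolded protein response is the program by which a cell adjusts the folding capacity of its ER. The chaperone BiP (Hspa5) binds unfolded chains and also the lumenal ends of 3 sensors, IRE1, ATF6 and PERK. IRE1 splices the Xbp1 mRNA, and the spliced factor, together with cleaved ATF6, acts on genes for chaperones and for the disposal of misfolded proteins. PERK phosphorylates eIF2alpha, which lowers translation in general but favors that of Atf4, and ATF4 in turn acts on Ddit3 (CHOP) and on genes of amino acid supply. In satellite cells the PERK arm is known for its role in quiescence and survival after activation.

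The values are RPM, which sets each library to the same sum of reads, from a panel with 1 amplicon per gene, so they compare a gene between libraries and not genes with each other. Where values are listed, they follow the order of the library numbers. Library totals were 14527445 to 23388710 reads, and 3 reads, taken as the floor, equaled 0.128 to 0.207 RPM. NC3 stood apart from the other libraries. It lay above or below all other 6 in 69.2% of the 8229 genes that averaged 10 RPM or more, and in 29 of the 36 genes described here (80.6%). Xist, which is transcribed from the inactive X chromosome, was at 445 RPM or more in NC1, NC2, HC1 and HC2 and at 0.125 RPM or less in NC3, HC3 and HC4. Pax7 was at 268, 8.25 and 4.34 RPM under normocapnia against 21.5, 20.1, 79.5 and 59.7 RPM under hypercapnia, and the sum of 12 satellite cell markers ran from 546 to 4359 RPM in normocapnia and from 817 to 1679 RPM in hypercapnia. The gene that defines the sort was thus under 10 RPM in 2 of 3 normocapnia libraries. The sum of 12 macrophage markers ran from 13350 to 36705 RPM in normocapnia and from 21497 to 26600 RPM in hypercapnia, highest in NC3. Lyz2 made up 29108 of the 36705 RPM there, and none of the other 11 markers was highest in NC3. Of these markers 1 of the 12 (Adgre1) was called higher in hypercapnia, in 12 of 17 alternatives but not after median-of-ratios scaling or without NC1, NC3, HC1 or HC2, while the other 11 were not called. Of the C1q genes C1qb was at 158 to 1061 RPM and C1qa under 1 RPM in all libraries. Markers of B cells and plasma cells, which are rich in ER, summed to 21.9 to 87.2 RPM in normocapnia and 41.0 to 67.6 RPM in hypercapnia, with Mzb1 under 1 RPM throughout. Sdc1, which other cells also express, made up 73.4 of the 87.2 RPM in NC1 and 2.20 of the 21.9 RPM in NC3. In such bulk RNA, fewer cells of a type and less RNA per cell cannot be told apart, and the part of cell makeup in the results below was not tested.

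Calls towards higher values in hypercapnia came from the chaperones, and none came from the PERK and ATF4 arm. A gene was called when its limma p before adjustment was under 0.05 and it differed by more than 1.5-fold, the thresholds of the study. Of the 36 genes, 4 were called (11.1%), against 2.57% of all genes and 5.54% of genes averaging 10 RPM or more, a level that 32 of the 36 reached. Sdf2l1, Calr and Hyou1, all chaperones or their cofactors, rose, and Herpud1, of ER-associated degradation, fell. No gene of the 36 passed Benjamini-Hochberg adjustment over all genes in limma (lowest adjusted p = 0.492), where 6 were under 0.05 before adjustment (16.7%, against 4.66% of all genes), nor did any in edgeR or DESeq2 on recovered reads. The groups did not overlap in 8 of the 36, against 4.83% of all genes and 9.62% of those averaging 10 RPM or more. Among the 17 chaperones and folding enzymes 3 were called higher (17.6%, against 1.43% of all genes and 3.07% of those averaging 10 RPM or more) and none lower, and in 7 each hypercapnia library exceeded each normocapnia library (2.53% and 4.96% of those same backgrounds). Their median log2 fold change was 0.46, that of degradation 0.30, of the IRE1 and ATF6 arms 0.22 and of the PERK and ATF4 arm 0.10, beside 0.02 over all genes and 0.13 over genes averaging 10 RPM or more. None of the 7 genes of the PERK and ATF4 arm was called, and in none did the groups separate. Only 4 of these 7 averaged 10 RPM or more, against 17 of 17 chaperones and folding enzymes. The arm's median of 0.10 was the value of Chac1, at 0.207 to 3.17 RPM and so near the floor. Whether the role groups differed from each other was not tested. Without NC3, 5 genes were called, 4 higher (Sdf2l1, Calr, Pdia3 and Pdia4) and 1 lower (Herpud1), against 2.57% of all genes. With edgeR on recovered reads, where 35 of the 36 were tested, the split was 2 higher and 3 lower, Syvn1 and Dnajb9 joining Herpud1 below. In that fit 6.03% of 13293 genes were called, 294 higher and 508 lower.

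**Figure D1:**
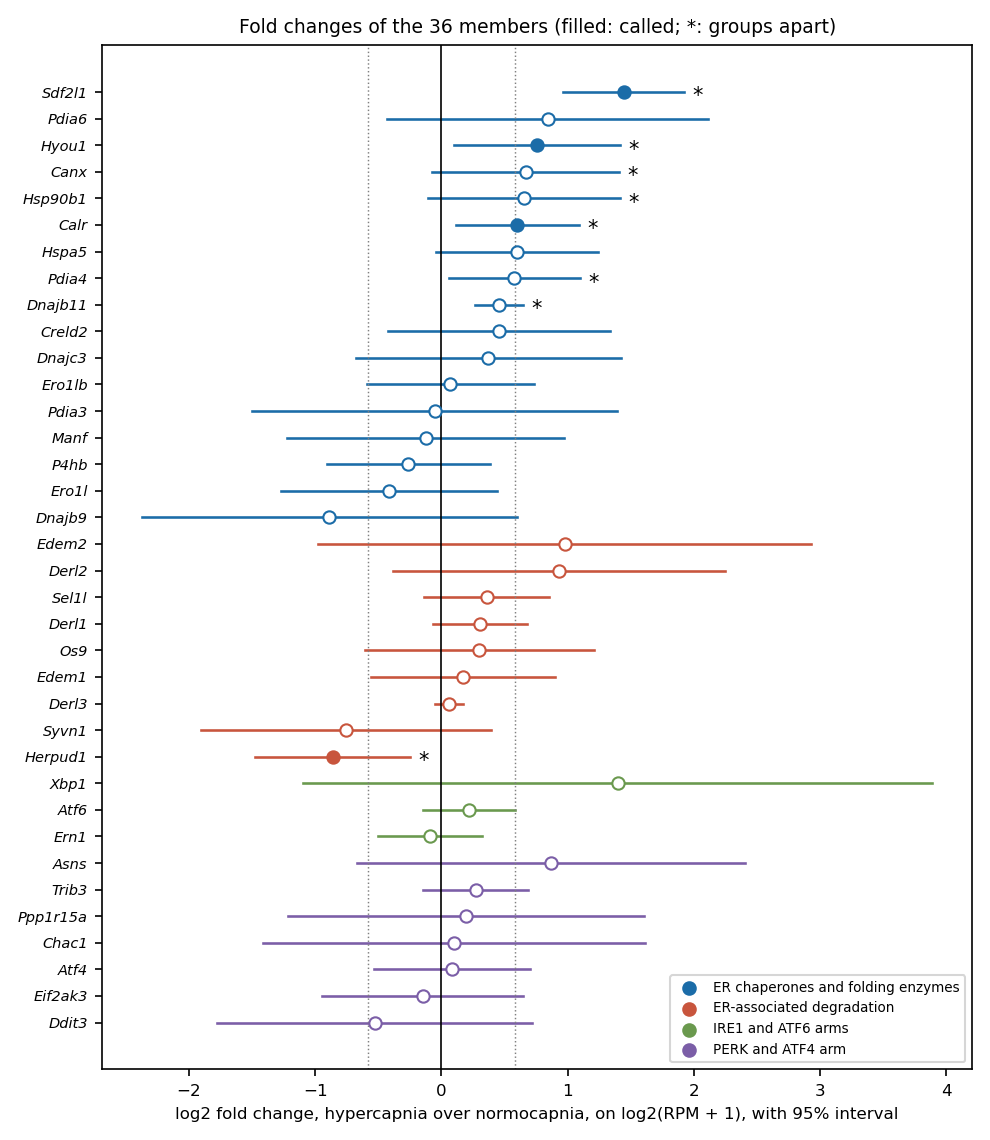
Log2 fold change of each of the 36 genes, hypercapnia over normocapnia, on log2(RPM + 1), with its 95% interval from limma, colored and ordered by role. Filled points were called, dotted lines mark a fold of 1.5, and a star marks genes whose groups did not overlap. The 3 filled points to the right are chaperones (Sdf2l1, Hyou1, Calr), the filled point to the left is Herpud1, and all intervals of the PERK and ATF4 arm cross 0.

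Some promoters of these genes carry the letters by which the response is usually recognized, and those sites are shown so that they can be read beside the values. The counts by role group are a description with no test. The element was defined on promoters of genes such as Hspa5, so its presence there is background. The ER stress response element (ERSE), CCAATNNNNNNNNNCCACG, joins a site for NF-Y to one for ATF6 and XBP1. It was searched on both strands in RefSeq windows of 300 bases, 250 before and 50 after each start (build GRCm38.p6). Of 32817 windows, 39 held it (0.119%). Windows were found for 32 of the 36 genes (all but Manf, Hyou1, Derl1 and Atf6), and 10 of the 32 held it, 8 of 15 chaperones and folding enzymes, 2 of 8 degradation genes and none of the 7 genes of the PERK and ATF4 arm. The sites, each read 5′ to 3′ on the strand that carries the element, with its fixed bases in capitals, were:
Calr (chr8:84847075-84847093, plus strand): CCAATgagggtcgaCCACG
Canx (chr11:50325800-50325818, minus strand): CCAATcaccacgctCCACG
Creld2 (chr15:88819520-88819538, minus strand): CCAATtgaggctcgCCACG
Dnajc3 (chr14:118937827-118937845, plus strand): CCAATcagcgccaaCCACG
Ero1lb (chr13:12565682-12565700, minus strand): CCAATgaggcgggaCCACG
Hsp90b1 (chr10:86705533-86705551, plus strand): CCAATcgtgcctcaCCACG
Hsp90b1 (chr10:86705638-86705656, minus strand): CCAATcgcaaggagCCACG
Hspa5 (chr2:34772025-34772043, plus strand): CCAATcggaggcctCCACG
Pdia6 (chr12:17266491-17266509, plus strand): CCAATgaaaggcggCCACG
Derl3 (chr10:75893242-75893260, minus strand): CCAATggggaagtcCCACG
Syvn1 (chr19:6046532-6046550, plus strand): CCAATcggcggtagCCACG
The middle 9 bases differed in all of them. Hsp90b1 held 2 elements. The ATF4 element (CARE), TGATGNAAN, stood in 3.96% of all windows and in 4 of the 32, namely Herpud1 and 3 of 7 genes of the PERK and ATF4 arm, of which 2 are given upstream of the start:
Asns (chr6:7693224-7693232, minus strand): TGATGaAAc
Chac1 (chr2:119351048-119351056, minus strand): TGATGcAAc
A shorter form, ERSE-II (ATTGGNCCACG), was in 0.0366% of windows and in 2 of these genes, Dnajb11 and Herpud1, and UPRE, the XBP1 element TGACGTGG, in 0.676% of windows, was in none. The letters are a description of the windows, not evidence of binding.

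Around the elements of the best known chaperone promoter, that of Hspa5, the sequence of the plus strand (chr2:34771995-34772073), with the fixed bases in capitals, read:
Hspa5: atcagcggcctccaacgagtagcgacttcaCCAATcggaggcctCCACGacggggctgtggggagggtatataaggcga
For Hsp90b1 (chr10:86705503-86705686, minus strand) both elements lay in 1 stretch, the downstream one on the opposite strand and therefore seen as CGTGG and ATTGG:
Hsp90b1: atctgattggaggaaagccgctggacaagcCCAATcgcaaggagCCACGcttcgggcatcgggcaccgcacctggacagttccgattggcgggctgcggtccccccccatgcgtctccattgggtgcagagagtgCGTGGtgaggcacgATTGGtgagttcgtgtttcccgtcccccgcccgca
For Calr (chr8:84847045-84847123, minus strand) the element was also on the opposite strand:
Calr: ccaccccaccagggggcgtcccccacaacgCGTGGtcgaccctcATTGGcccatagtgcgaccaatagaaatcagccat
Herpud1 (chr8:94386286-94386417, plus strand) was the one gene of the 32 with a window that held both an ERSE-II and an ATF4 element, the latter on the opposite strand:
Herpud1: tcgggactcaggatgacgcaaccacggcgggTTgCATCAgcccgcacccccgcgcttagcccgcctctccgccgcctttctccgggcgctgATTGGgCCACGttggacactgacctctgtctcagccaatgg
All 8 chaperones with an ERSE in the window had a log2 fold change above 0 (0.07 to 0.84, median 0.60), and 3 of the 7 with a window but no ERSE did (-0.89 to 1.45, median -0.05). Only exact matches were counted, and Dnajb11, among these 7, held the shorter ERSE-II. Of the 8229 genes averaging 10 RPM or more 4900 were above 0. In each of these sets 3 genes were higher without overlap (4.96% of the 8229 genes) and 1 was called higher (3.07%). Without NC3 the sets no longer stood in this order, with 6 of 8 above 0 (median 0.45) and 5 of 7 above 0 (median 0.51). Sdf2l1, which had the largest fold change of the chaperones, had a window without these letters.

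Sdf2l1, a lumenal partner of the J proteins that bring substrates to BiP, had the largest log2 fold change of the 36. It was at 37.8, 53.3 and 35.7 RPM under normocapnia against 139, 125, 99.3 and 102 RPM under hypercapnia. The lowest hypercapnia library lay well above the highest normocapnia library, by 0.89 on the log2(RPM + 1) scale, and NC3 was close to NC1. The means were 42.3 ± 9.61 RPM in normocapnia and 116 ± 19.0 RPM in hypercapnia (SD, n = 3 and 4), and the log2 fold change was 1.45 (SE 0.19, 95% interval 0.97 to 1.93, limma adjusted p = 0.492). It was called in all 17 alternative analyses, at 1.30 to 1.62.

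BiP itself, the Hsp70 of the ER, differed less. Hspa5 was at 533, 761 and 460.2 RPM under normocapnia against 1211, 745, 729 and 856 RPM under hypercapnia. The groups overlapped, since NC2 exceeded HC2 and HC3, and HC1 was the highest library. Its log2 fold change of 0.60 (95% interval -0.04 to 1.24) was not called, but was called without NC2 (0.81). Hyou1 (GRP170), which exchanges the nucleotide of BiP, was at 71.9, 82.2 and 39.4 RPM under normocapnia against 98.6, 98.0, 116 and 109 RPM under hypercapnia. All hypercapnia libraries were above all normocapnia libraries and NC3 was the lowest. It was called at 0.76 (SE 0.26, 95% interval 0.10 to 1.42, limma adjusted p = 0.915). The call was lost without NC3, where the difference was 0.44 and under the fold threshold, and without any 1 of HC1 to HC4 (0.71 to 0.79), where it missed the limma threshold. In all it was called in 10 of 17 alternatives.

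Of the J proteins, which hand substrates to BiP and stimulate its ATPase, Dnajb11 varied little within the groups. It was at 124, 119.6 and 134 RPM under normocapnia against 194, 161, 168 and 171 RPM under hypercapnia. All hypercapnia libraries were above all normocapnia libraries. The log2 fold change was 0.46 (SE 0.08, 95% interval 0.27 to 0.65, limma adjusted p = 0.602), under the fold threshold and so not called, and it stayed above 0 in all 17 alternatives (0.27 to 0.51). Dnajb9 and Dnajc3 did not share this. Dnajb9 (ERdj4), which also returns IRE1 to its inactive form, was at 334 RPM in NC3 and 52.4 to 91.3 RPM in the other 6 libraries, with a log2 fold change of -0.89 that shrank to -0.18 without NC3. Dnajc3 was at 21.2 RPM in NC3 and at 50.7 to 64.1 RPM elsewhere, and its sign turned without NC3 (from 0.37 to -0.14).

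Hsp90b1 (GRP94), the Hsp90 of the ER, was at 1433, 730.2 and 1529 RPM under normocapnia against 2157, 1588, 1586 and 2124 RPM under hypercapnia. The groups did not overlap, but by little, since HC3 was just above NC3, and NC2 was far below the rest. The log2 fold change was 0.66 (95% interval -0.11 to 1.42), which was not called, and it was 0.32 without NC2 and 0.85 without NC3.

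**Figure D2:**
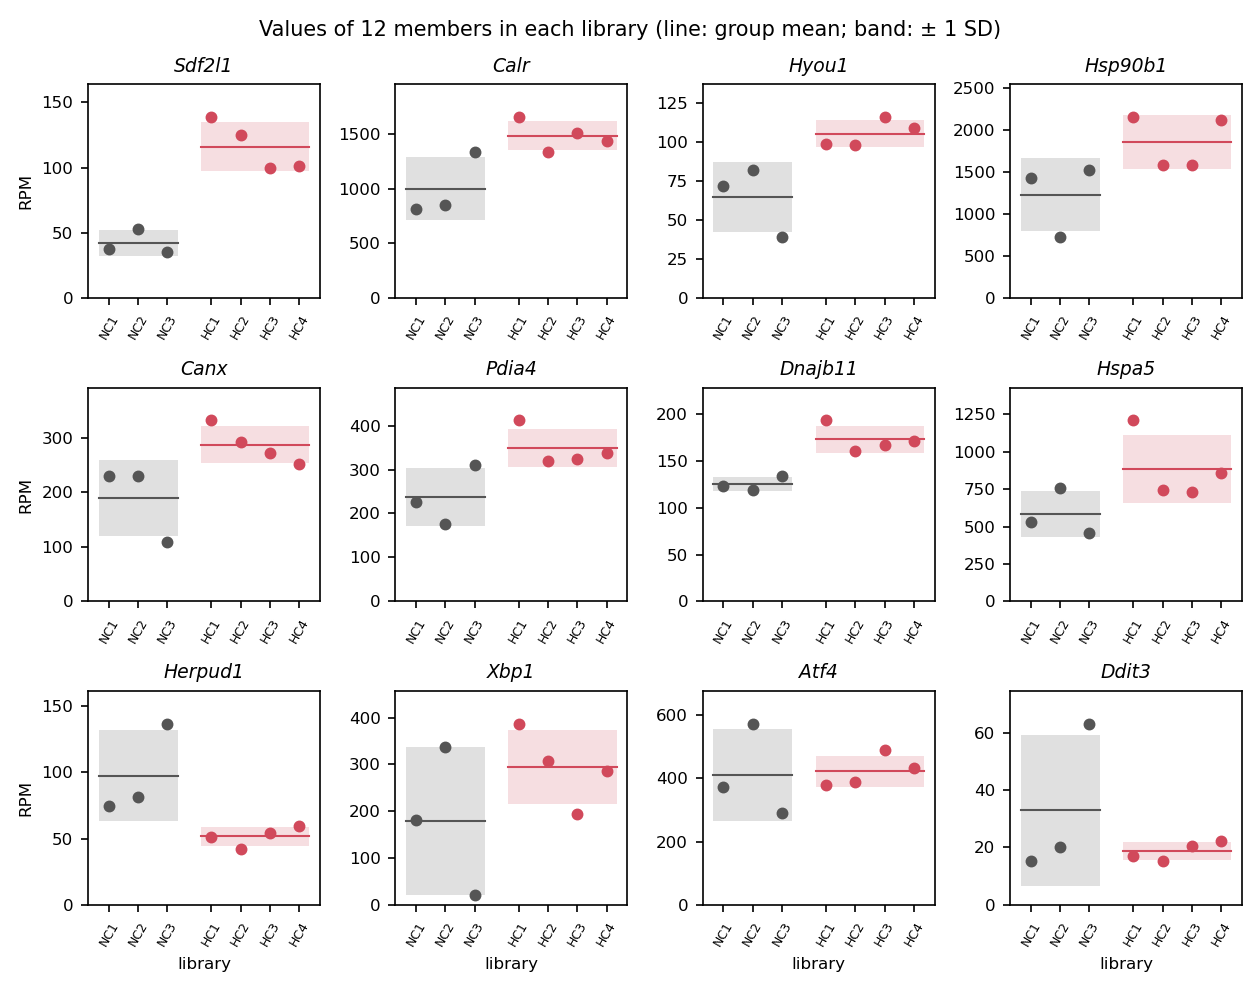
RPM (linear axis from 0) of 12 of the genes in each of the 7 libraries, with the group mean as a line and 1 SD as a band. All hypercapnia points of Sdf2l1 (99.3 to 139 RPM) lie above all normocapnia points (35.7 to 53.3 RPM), those of Herpud1 lie below, and the groups of Hspa5, Xbp1, Atf4 and Ddit3 overlap.

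The lectin chaperones calreticulin and calnexin, which hold glycoproteins until they are folded, were both higher in each hypercapnia library. Calr was at 813, 849.8 and 1331 RPM under normocapnia against 1652, 1335, 1503 and 1434 RPM under hypercapnia. NC3 reached almost the level of HC2, and the other 2 normocapnia libraries were lower. It was called at 0.60 (SE 0.19, 95% interval 0.11 to 1.09, limma adjusted p = 0.915), at a fold of 1.52 just over the threshold. The call was lost without NC1 (0.47), without NC2 (0.50), without HC1 (0.55) and without HC3 (0.59), and it stood without NC3 (0.83). In all it was called in 6 of 17 alternatives. Canx was at 229, 229 and 109 RPM under normocapnia against 332, 291, 271 and 252 RPM under hypercapnia. Its log2 fold change of 0.67 (95% interval -0.07 to 1.41) was not called, and without NC3, the lowest library, it was 0.32. It was called after quantile normalization and with Xist as a covariate, 2 of 17 alternatives.

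The protein disulfide isomerases, which form and rearrange disulfide bonds, were mixed. Pdia4 was at 227, 177 and 309 RPM under normocapnia against 412, 320.1, 324 and 337 RPM under hypercapnia. The groups did not overlap, with NC3 closest to hypercapnia, and the log2 fold change of 0.58 (95% interval 0.06 to 1.10) was at a fold of 1.49, just short of the threshold, and was called without NC3 (0.79). Pdia3 (ERp57), the partner of calnexin and calreticulin, was at 575, 412 and 2104 RPM under normocapnia against 797, 639.9, 809.6 and 827 RPM under hypercapnia. NC3 alone was high, so that the log2 fold change was -0.05 with all libraries and 0.65 without NC3, where it was called. Pdia6 was at 30.9 to 103 RPM in normocapnia and 66.5 to 139 RPM in hypercapnia (0.84, not called). Without NC2, its highest normocapnia library, Pdia6 was called (1.31), and without NC3, its lowest, it was at 0.46. P4hb was at 514 to 1012 RPM and 481 to 674 RPM (-0.26, not called).

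The remaining 4 genes of this group, the oxidases Ero1l and Ero1lb that recharge the isomerases and the secreted stress proteins Creld2 and Manf, were not called. Creld2 was at 64.9 to 147 RPM in normocapnia and 91.3 to 176 RPM in hypercapnia, with a log2 fold change of 0.46. Ero1lb was at 8.81 to 20.7 RPM in normocapnia and 13.7 to 14.9 RPM in hypercapnia (0.07). Manf was at 749 RPM in NC3 and 248 to 419 RPM elsewhere (-0.13 with and 0.40 without NC3). Ero1l was at 23.6 to 60.6 RPM in normocapnia and 25.3 to 33.6 RPM in hypercapnia (-0.42), and of all alternatives it was called only when NC1 was left out (-0.82).

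In ER-associated degradation, by which misfolded proteins leave the ER for the proteasome, 1 of 9 genes fell and none rose (1.14% of all genes were called lower, and 2.47% of those averaging 10 RPM or more). Herpud1, which organizes the ubiquitin ligase complex at the membrane and is itself a target of ATF6 and ATF4, was at 74.5, 81.4 and 137 RPM under normocapnia against 51.0, 42.1, 54.4 and 59.4 RPM under hypercapnia. All hypercapnia libraries lay below all normocapnia libraries, and NC3 was the highest, an order without overlap found in 2.3% of all genes and 4.67% of those averaging 10 RPM or more. The means were 97.6 ± 34.2 RPM in normocapnia and 51.7 ± 7.27 RPM in hypercapnia (SD, n = 3 and 4), with a log2 fold change of -0.86 (SE 0.25, 95% interval -1.47 to -0.25, limma adjusted p = 0.892). Without NC3 it was still called, at -0.59. After median-of-ratios scaling it missed the limma threshold, and it was called in the other 16 of 17 alternatives. Its promoter stretch is printed above.

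The ligase core showed no call. Sel1l, the adaptor, was at 194, 239 and 165 RPM under normocapnia against 289, 286, 191 and 260.5 RPM under hypercapnia, and HC3 lay within the normocapnia range. Syvn1 (HRD1), the ligase, was at 109, 139 and 403 RPM under normocapnia against 107, 110.1, 109.6 and 105 RPM under hypercapnia. The hypercapnia values spanned only 105 to 110.1 RPM, while NC3 was above all others by a wide margin, and its log2 fold change of -0.76 became -0.19 without NC3. Derl1, of the retrotranslocation channel, was at 192, 143 and 139 RPM under normocapnia against 217, 181, 172 and 210.1 RPM under hypercapnia (0.31, 95% interval -0.07 to 0.68), with NC1 inside the hypercapnia range. Its relative Derl2 was at 6.68 to 30.1 RPM in normocapnia and 21.4 to 40.9 RPM in hypercapnia, with a log2 fold change of 0.93 that was 0.36 without NC3 and was called without NC2 (1.37). Edem2, one of the mannosidase-like proteins that mark glycoproteins for disposal, was at 3.30 to 34.1 RPM in normocapnia and 22.8 to 38.6 RPM in hypercapnia, lowest in NC3, and its 0.98 became 0.05 without that library. Edem1, at 85.2 to 178 RPM in normocapnia and 128 to 174 RPM in hypercapnia (0.17), and the lectin Os9, at 62.2 to 172 RPM in normocapnia and 98.7 to 148 RPM in hypercapnia (0.30), were not called. Without NC2, its highest library, Os9 was called (0.70), and without NC3, its lowest, it was at -0.03. Derl3 was at 0.125 RPM or less in each library, within the floor, so no fold is given.

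The 3 genes of the IRE1 and ATF6 arms did not pass the test. Ern1 (IRE1) was at 80.6, 82.9 and 99.9 RPM under normocapnia against 67.5, 73.2, 93.5 and 97.4 RPM under hypercapnia, and the groups overlapped almost fully (-0.09, 95% interval -0.50 to 0.32). Atf6 was at 158, 172 and 124 RPM under normocapnia against 175, 203, 157 and 164 RPM under hypercapnia (0.22, interval -0.15 to 0.58). Xbp1 was at 181, 336 and 19.8 RPM under normocapnia against 387, 308, 194 and 286 RPM under hypercapnia. NC3 was far below all other libraries, and the log2 fold change of 1.40 (95% interval -1.09 to 3.89) became 0.21 without it. A single amplicon value does not separate spliced from unspliced Xbp1 mRNA. The activation of IRE1, which is by phosphorylation, and that of ATF6, which is by cleavage, were not measured.

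In the PERK and ATF4 arm, neither the sensor nor its transcription factors passed the test. Eif2ak3 (PERK) was at 38.5, 65.9 and 24.8 RPM under normocapnia against 37.7, 34.7, 34.0 and 37.0 RPM under hypercapnia. The hypercapnia libraries lay close together inside the wider normocapnia range. Atf4 was at 371, 574 and 291 RPM under normocapnia against 378, 389, 489 and 432 RPM under hypercapnia, with NC2 the highest and NC3 the lowest library. Its log2 fold change was 0.08 (95% interval -0.53 to 0.70). As background, ATF4 is controlled mainly at the level of translation, which these values do not show. Ddit3 (CHOP), the transcription factor linked to cell death under lasting stress, was at 15.4, 20.2 and 63.3 RPM under normocapnia against 16.9, 15.2, 20.6 and 22.2 RPM under hypercapnia. NC3 was alone in being high, and the value of -0.53 became 0.07 without it.

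The targets at the end of this arm were low or uneven. Ppp1r15a (GADD34), which directs the phosphatase that restores translation, was at 169.7, 606 and 127 RPM under normocapnia against 252, 312, 304 and 222 RPM under hypercapnia. NC2 was the highest of all, and the gene was called higher only when NC2 was left out (0.87). Asns, which makes asparagine, was at 13.5, 2.44 and 3.92 RPM under normocapnia against 6.51, 7.19, 17.6 and 13.9 RPM under hypercapnia, with NC1 close to HC4, and was called higher only without NC1 (1.47). Chac1, which degrades glutathione, was at 3.17, 0.727 and 0.207 RPM under normocapnia against 0.300, 0.502, 2.81 and 2.17 RPM under hypercapnia, and Trib3, a pseudokinase that restrains ATF4 and AKT, at 0.580, 0.684 and 0.207 RPM under normocapnia against 0.556, 0.703, 1.19 and 0.745 RPM under hypercapnia. Both were at 3 reads in NC3, on the floor. Chac1 was above 2 RPM in NC1, HC3 and HC4 and under 1 RPM in the rest.

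Libraries could be divided further by their Xist level, which was done after values were seen. The 2 normocapnia and 2 hypercapnia libraries with Xist and the 3 libraries without it (NC3, HC3 and HC4) each gave a difference, with 1 normocapnia library only in the second set and no test. Among the chaperones and folding enzymes, 10 of 17 were higher in hypercapnia in both sets, 3 lower in both and 4 opposite. Of the 8229 genes averaging 10 RPM or more 2376 were higher in both, 1714 lower in both and 4136 opposite, and in the PERK and ATF4 arm 5 of 7 were opposite. In the libraries with Xist the chaperone median difference was 0.49, against -0.12 over the 8229 genes and -0.19 in the PERK and ATF4 arm. In those without Xist the order turned, with 0.26 for the chaperones, 0.55 over the 8229 genes and 0.69 in the PERK and ATF4 arm. That 0.69 was the value of Trib3, which like Chac1 was at 3 reads in NC3, the only normocapnia library of this set. Sums of cell type markers turned between the sets as well. Those of 10 endothelial genes were at 267 and 138 RPM in NC1 and NC2 against 84.1 and 66.4 RPM in HC1 and HC2, and at 92.2 RPM in NC3 against 633 and 471 RPM in HC3 and HC4. Sums of 9 fibro-adipogenic genes were at 3089 and 1600.0 RPM against 1330 and 1155 RPM with Xist and at 1183 RPM against 2356 and 2804 RPM without. Sums of 9 myofiber genes were at 5364 and 1443 RPM against 761 and 412 RPM with Xist and at 257 RPM against 1461 and 2743 RPM without. The satellite cell sum was likewise lower in hypercapnia with Xist and higher without it, but Sdc4 made up 781 of the 1013 RPM in NC2. Of the other satellite cell markers, Calcr and Chrdl2 were higher in NC2 than in HC1 and HC2, Des lay between them and the rest were lower. None of the genes in these 4 lists was called, and their part in the turn was not tested. Sdf2l1 differed by 1.53 in the libraries with Xist and 1.47 in those without, on the log2(RPM + 1) scale, Herpud1 by -0.74 and -1.26, Hspa5 by 0.58 and 0.78, Calr by 0.84 and 0.14, Hyou1 by 0.35 and 1.49, and Dnajb11 by 0.54 and 0.34. Atf4 differed by -0.27 and 0.66. NC3, the only control without Xist, was below the other 6 libraries in 19 of the 36 genes and above them in 10. Over the 8229 genes it was below them in 4069 and above them in 1624. HC1 was the highest library in 12 of the 36, 8 of them chaperones or folding enzymes, and in 523 of the 8229 genes.

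**Figure D3:**
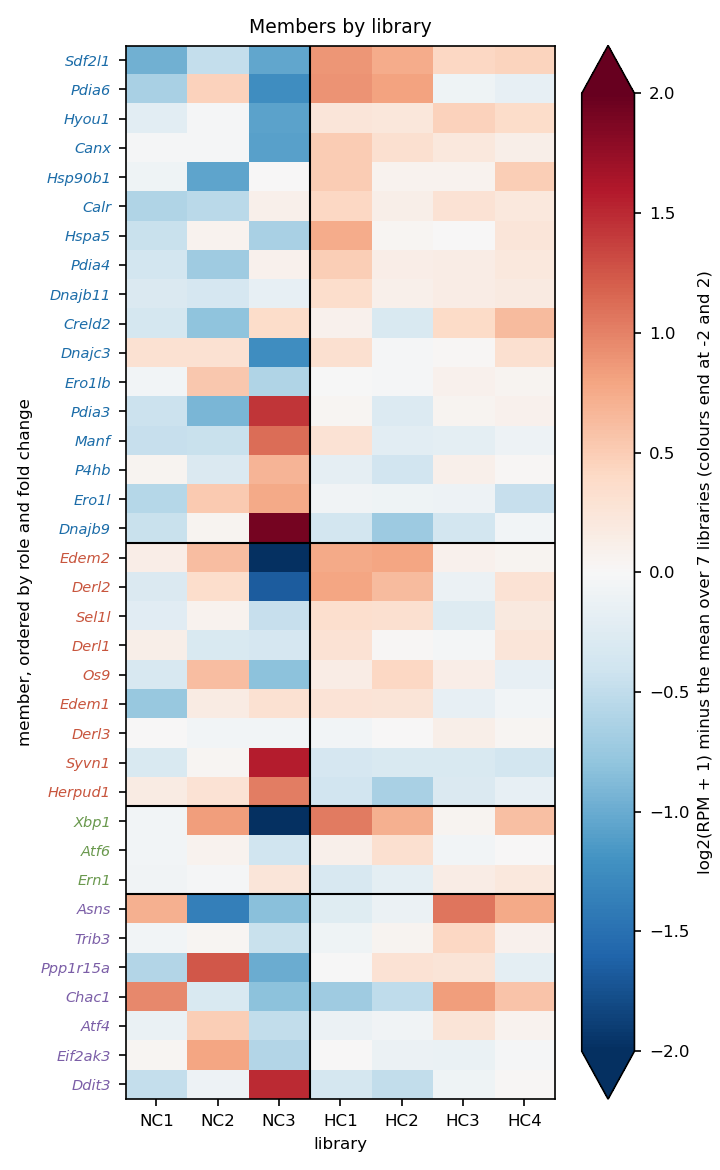
Deviation of each of the 36 genes from its mean over the 7 libraries, on log2(RPM + 1), by library, with role groups divided by lines. The upper 9 chaperone rows are mostly blue in NC1 to NC3 and red in HC1 to HC4. The strongest colors are in NC3, where Dnajb9, Syvn1 and Ddit3 are red and Xbp1, Edem2 and Derl2 are blue.

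Further lists of the same pathway, written from general knowledge with earlier results of these data in view, together held 131 genes with values, of which 8 were called, 5 higher and 3 lower. This share of 6.11% was near the 5.54% of genes averaging 10 RPM or more, a level that 112 of the 131 reached. Without NC3 5 were called (3.82% against 2.57% of all genes), all higher, and without NC1 24 (18.3% against 8.32%), 17 higher and 7 lower. On recovered reads more were lower than higher. With edgeR 5 were higher and 6 lower (8.66% of 127 tested, against 6.03%), and without a filter 2 and 7 (6.87% against 4.38%). With DESeq2 7 were higher and 9 lower (12.2% against 5.45%). In the translocon and signal peptidase list, through which new chains enter the ER, 1 of 15 rose (Spcs2, a subunit of signal peptidase, 0.70, called in 11 of 17 alternatives and not without NC2). In the oligosaccharyltransferase, which adds N-glycans, 1 of 11 rose, Rpn1, at 282, 358 and 249 RPM under normocapnia against 531, 512, 507 and 524 RPM under hypercapnia. The hypercapnia libraries lay close together and above all normocapnia libraries (0.82, SE 0.12, limma adjusted p = 0.517), and 16 of 17 alternatives kept the call. Among the other subunits the groups did not overlap in Magt1, which was higher in hypercapnia (0.47), and in Dad1 (-0.39), Ost4 (-0.71) and Tusc3 (-0.41), which were lower, and none of these was called. Among 28 other folding enzymes 1 fell (Dnajb14, -0.59, called in 2 of 17 alternatives at -0.91 to -0.34), and among 24 other degradation genes 1 fell (Rnf103, -0.79, at 1.90 to 8.94 RPM, called in 4 of 17 at -1.17 to -0.45). None of 19 other stress transducers was called.

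Other targets of ATF4 and CHOP included calls in both directions. Of 34 with values, 3 rose, namely Gdf15, a stress-induced hormone, Atf3, a stress-induced transcription factor, and Aars, the alanyl-tRNA synthetase, and 1 fell (Slc38a2, an amino acid transporter), or 11.8% against 2.57% of all genes and 5.54% of those averaging 10 RPM or more. Gdf15 was at 11.2, 25.4 and 13.1 RPM under normocapnia against 34.6, 48.8, 42.2 and 36.0 RPM under hypercapnia. The groups did not overlap, and it was called at 1.31 (SE 0.30, limma adjusted p = 0.766) and in all 17 alternatives. Atf3 was at 651, 830.0 and 383 RPM under normocapnia against 967, 1097, 992 and 1065 RPM under hypercapnia (0.80), Aars at 240.4, 146 and 63.9 RPM under normocapnia against 282, 276, 304 and 354 RPM under hypercapnia (1.20) and Slc38a2 at 209, 279 and 285 RPM under normocapnia against 141, 147, 194 and 166 RPM under hypercapnia (-0.66). Without NC3, Gdf15 (1.20) and Aars (0.69) were called, while Atf3 (0.49) and Slc38a2 (-0.58) were under the fold threshold. Aars was called in 11 of 17 alternatives (0.69 to 1.64), losing its call without NC2, without each of HC1 to HC4 and with the replicate block. Atf3 was called in 8 of 17 (0.49 to 1.04), and of the analyses that left out 1 library only in the one without NC2. Slc38a2 was called in 16 of 17. Without NC1 the count in this list went to 12 higher and 4 lower, with 1990 genes called over the whole table. With edgeR it was 3 higher and 3 lower (18.8% of 32 tested, against 6.03%), and without a filter 2 and 4 (17.6% against 4.38%). With DESeq2 it was 4 higher and 3 lower (20.6% against 5.45%). Aars was at 63.9 RPM in NC3 and at 146 to 354 RPM elsewhere.

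The level of all genes shifted with normalization. The median over genes averaging 10 RPM or more was 0.13 as deposited and -0.01 after median-of-ratios scaling, on the log2 scale. The chaperone median was above that of these genes in 18 of 18 analyses, by 0.21 to 0.52, but below it in the libraries without Xist taken alone (0.26 against 0.55). The degradation median was above it in 17 of 18. The median of the PERK and ATF4 arm was above it in 5 of 18 and below 0 in 4 (edgeR with and without a filter, DESeq2, and without NC3).

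**Figure D4:**
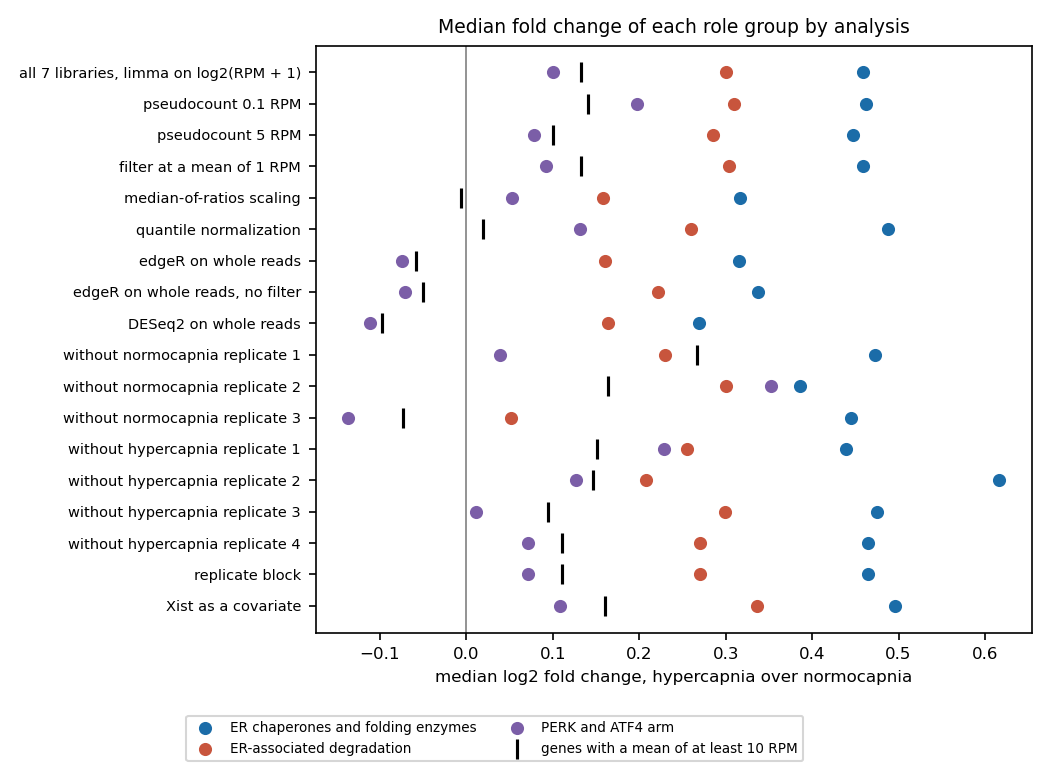
Median log2 fold change of 3 role groups in each of 18 analyses (colored points) beside the median of all genes averaging 10 RPM or more (black ticks). The chaperone points lie between 0.27 and 0.62, to the right of the tick in each row, and those of the PERK and ATF4 arm between -0.14 and 0.35, on either side of it.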

How the data were processed

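RNA of sorted Pax7-GFP cells was measured in 3 normocapnia and 4 hypercapnia libraries, grouped by the labels. The authors made Ion AmpliSeq Transcriptome Mouse libraries on an Ion Chef, read them on an Ion S5 and deposited a table of RPM, reads on the panel scaled to a common library total. The submitters' processing notes name the Transcriptome Analysis Console. The aligner was not given in the sources used here, nor was a genome build. Whole reads were recovered from the RPM steps (100% of values within 0.05 reads; checked on simulated data, 7 of 7 library totals right). limma 3.58.1 (R 4.3.3) was run, two-sided, on log2(RPM + 1), with all 23930 genes kept, so fold changes of low genes are understated. A call needed an unadjusted p under 0.05 and a fold above 1.5. Alternatives were pseudocounts of 0.1 and 5 RPM, median-of-ratios and quantile scaling, removal of genes averaging under 1 RPM, edgeR 4.0.16 and DESeq2 1.42.0 on recovered reads, each library left out, the replicate number as a block, and Xist as a covariate. No source says that libraries came from separate animals, so p-values measure the spread between these libraries. The closest pairs of libraries (HC1 with HC2, HC3 with HC4) still differed by 24.6 and 27.3 in chi-square over degrees of freedom, so all were kept. All other pairs differed by 104.6 to 528.2. HC1 and HC2 had Xist, and HC3 and HC4 did not. The tests and SDs count these pairs as 4 independent libraries, which no source states. Named were all called genes, all with groups apart, the 3 with the highest mean RPM per role group (for display only, since RPM here does not rank genes) and the main signal carriers. Motifs were sought in the RefSeq promoter table. The 36 genes and all lists were chosen with earlier results of these data known. Genes of the lists without a row (Sec61b, Sec61g, Srprb, Pdia2, Tmx2, Vcp, Ube2j2 and Phgdh) and 5 genes of the marker lists, 2 of them in the B and plasma cell list, were not analysed here, and 1 further marker gene is not reported here.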

Additional observations from a re-analysis of the deposited data

Results flagged for a closer look

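In 2 of the 36 genes 1 hypercapnia library lay far from the other 3 by Dixon's test. For Pdia3, HC2 was at 640 RPM and the others at 797 to 827 RPM (gap over range 0.838). For Ero1l, HC4 was at 25.3 RPM and the others at 32.9 to 33.6 RPM (0.914). Chance gives about 1 in 20 such groups.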

How the results depend on the processing

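Of the 36 genes, 4 were called with all libraries on log2(RPM + 1), 2 after median-of-ratios scaling (2.56% of all genes), 7 after quantile normalization (2.9%; Hspa5, Canx and Pdia4 added), 8 with Xist as a covariate (5.5%; Hspa5, Canx, Pdia6, Derl2 and Edem2 added, Calr lost) and 2 to 8 when 1 library was left out. Over all genes the count of 615 became 1049 in edgeR without a filter, 1304 in DESeq2 (29 after adjustment), 1316 with Xist as a covariate and 376 to 1990 with 1 library left out, most without NC1. The replicate number was also fitted as a block. The numbers did not pair the libraries (correlations of deviations -0.35, 0.50 and -0.04), and the block gave 2 of the 36 genes and 598 genes in all. The chaperone median of 0.46 was 0.32 after median-of-ratios scaling, 0.32 in edgeR, 0.27 in DESeq2 and 0.39 to 0.62 with 1 library left out.

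Some uncalled genes changed sign. After median-of-ratios scaling these were Atf4 (-0.059) and Ero1lb (-0.061), after quantile normalization Pdia3 (0.011), Ero1lb (-0.13) and Chac1 (-0.11), and with the block Chac1 (-0.074). In edgeR with and without a filter they were Atf4 (-0.074 and -0.071), Edem1 (-0.094 and -0.062), Ero1lb (-0.086 and -0.088) and Ppp1r15a (-0.23 and -0.23), and in DESeq2 Atf4 (-0.11), Edem1 (-0.14), Ero1lb (-0.12) and Ppp1r15a (-0.25). With 1 library left out, ranges were -0.14 to 0.35 for Atf4, -0.28 to 0.61 for Chac1, -0.92 to 0.065 for Ddit3, -0.14 to 0.63 for Dnajc3, -0.16 to 0.37 for Edem1, -0.48 to 0.21 for Eif2ak3, -0.17 to 0.0036 for Ern1, -0.21 to 0.36 for Ero1lb, -0.40 to 0.40 for Manf, -0.027 to 0.70 for Os9, -0.48 to 0.0045 for P4hb, -0.52 to 0.65 for Pdia3 and -0.25 to 0.87 for Ppp1r15a. The cause of these changes was not tested. Sdf2l1 was called in 17 of 17 alternatives, Herpud1 in 16 (all but median-of-ratios scaling), Hyou1 in 10 and Calr in 6.

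With 3 and 4 libraries, 1 of them apart, the 95% intervals of most of the 36 genes cross 0, and values near the floor of 3 reads (Derl3, Trib3 and Chac1) rest on few reads.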
